A study of Mus musculus with 6 samples.

Results

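The 38 genes described here are markers of the intestinal stem cell and targets or effectors of the Wnt pathway in the mouse small intestine. They were taken from a list of symbols, and all 38 were found among 55331 listed genes and among the 15460 that the authors tested. Crypt cells of the small intestine gave polyadenylated RNA for 3 WT and 3 PTBP1_KO libraries. Mice of both groups were C57BL/6, were 60 days old and carried floxed Ptbp1 alleles (Ptbp1f/f). PTBP1_KO mice also carried Vil-creER+/-, a tamoxifen-inducible Cre driven by villin sequence, which acts in intestinal epithelium and not in the immune or stromal cells of the crypt. Tamoxifen was injected daily into all mice for 2 days at 100 mg/kg, and crypts were released with 2 mM EDTA at 20 h after the last injection, once villi had been scraped away, and passed through a 70 µm strainer. Since the WT mice had no Cre, an effect of Cre itself and an effect of losing Ptbp1 cannot be told apart. The labels do not say whether each library came from its own mouse, so the p-values measure the spread between these libraries.

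Intestinal stem cells sit at the crypt base between Paneth cells, divide continuously and carry Lgr5, a receptor for R-spondins. Wnt ligands bind Frizzled and LRP receptors, which stops the breakdown of β-catenin, and β-catenin then works with TCF and LEF factors at target genes. Several targets feed back on the pathway, among them Axin2, a scaffold of the complex that degrades β-catenin, and Rnf43 and Znrf3, ubiquitin ligases that remove Frizzled from the membrane. PTBP1 binds pyrimidine-rich RNA and is best known as a repressor of exons.

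Gene levels are the authors' FPKM (fragments scaled to transcript length and library size), with 1 value per group. No value per library was used, so these levels have no spread, and the depth behind them is unknown. The targeted gene was listed at 230.0 FPKM in WT and 122.8 FPKM in PTBP1_KO, which is 53.4% of the WT level (q = 0.0125 in the authors' deposited table). Epithelial markers were high, with Epcam at 1220 FPKM in WT and 1340 FPKM in PTBP1_KO. The stem cell markers Lgr5, Ascl2 and Olfm4 were all detected. Other cell types differed between the groups: 4 of 8 Paneth markers and 3 of 8 T cell and leukocyte markers passed q < 0.05 as higher in PTBP1_KO, and 1 of 7 tuft markers passed as lower. Summed levels went from 8704 to 14943 FPKM for Paneth markers, from 116 to 201 FPKM for T cell and leukocyte markers and from 100.1 to 65.9 FPKM for tuft markers. No marker on these lists was listed at 0. In such bulk samples fewer cells of a type and less RNA per cell cannot be told apart.

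None of the 38 genes passed q < 0.05 in the authors' Cuffdiff test, against 0.537% of all genes tested. An unadjusted p below 0.05 was listed for 4 of the 38, or 10.5%, against 4.35% of all genes tested. Among genes of at least 1 FPKM in the higher group it was 2 of 35, or 5.71%, against 3.95%, since Fstl1 and Lef1 lie below that level. All 4 (Fstl1, Lef1, Gkn3 and Sox9) were lower in PTBP1_KO, a direction and p that 1.66% of all genes tested shared. Of the 38, 16 were listed higher and 22 lower in PTBP1_KO. The share listed lower was 57.9%, against 45.3% of all genes tested (8455 higher and 7005 lower). Among genes of at least 1 FPKM in the higher group it was 54.3% against 44.8%. The share over all genes tested is also the background for the direction counts by role below. The median log2 ratio, with 1 FPKM added to each level, was -0.03 for the 38 and 0.02 for all genes tested. The levels of 30 genes differed by less than 1.2-fold, which is 78.9% of the 38, compared with 73.7% of all genes tested. Above the same minimum level these shares were 85.7% and 82.7%. The levels of the 38 summed to 1633 FPKM in WT and 1569 FPKM in PTBP1_KO.

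**Figure D1:**
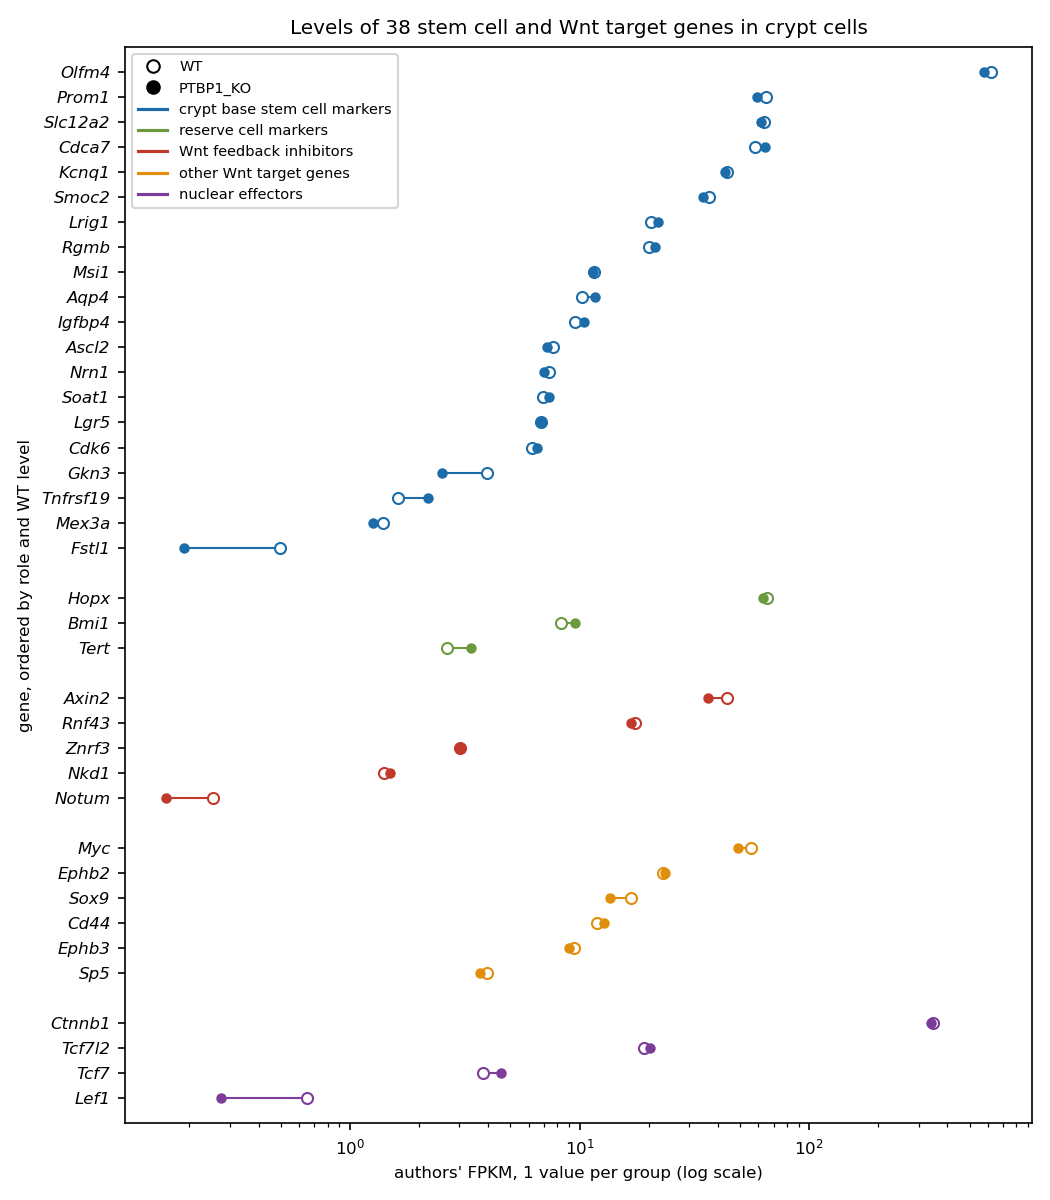
Authors' FPKM of the 38 genes on a log axis, with 1 value per group and no error; open circles are WT, filled circles PTBP1_KO, and colours give the role of each gene. The circles nearly coincide for most genes, while Fstl1, Lef1, Notum and Gkn3 show wide gaps, 3 of them at levels under 1 FPKM.

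Of the 20 crypt base markers, 8 were listed higher and 12 lower in PTBP1_KO, with a median log2 ratio of -0.02. Lgr5 (ENSMUSG00000020140.15, mm10 chr10:115450311-115587780, minus strand) was listed at 6.78 FPKM in both groups, with a log2 fold change of -0.0020 and p = 0.992 in the authors' deposited table. Ascl2, a transcription factor that sets stem cell identity, was at 7.64 FPKM in WT and 7.21 FPKM in PTBP1_KO. Both defining markers therefore had near-equal levels in the groups. Olfm4, a secreted glycoprotein and the most abundant of the 38, was at 618 and 578 FPKM (log2 fold change -0.10, p = 0.713, q = 0.9998 in the authors' deposited table). Prom1, a membrane glycoprotein also called CD133, was at 64.8 and 59.4 FPKM (log2 fold change -0.13, p = 0.545, q = 0.9998 in the authors' deposited table). Slc12a2, a sodium, potassium and chloride cotransporter, was at 63.7 and 61.9 FPKM (log2 fold change -0.04, p = 0.802, q = 0.9998 in the authors' deposited table).

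The remaining well-expressed crypt base markers had similarly small differences. Those with at least 10 FPKM in WT were Cdca7, a cell cycle-associated gene, at 58.1 and 64.0 FPKM, and the potassium channel gene Kcnq1 at 43.7 and 42.9 FPKM. The matricellular gene Smoc2 was at 36.7 and 34.6 FPKM, and Lrig1, an inhibitor of ErbB receptors, was at 20.4 and 21.97 FPKM. Rgmb, a BMP co-receptor, was at 20.0 and 21.2 FPKM, the RNA-binding gene Msi1 at 11.5 and 11.4 FPKM and the water channel gene Aqp4 at 10.2 and 11.7 FPKM. None of these 7 reached an unadjusted p below 0.05. Igfbp4, Nrn1, Soat1 and Cdk6 lay between 6.24 and 9.59 FPKM in WT, with log2 fold changes from -0.07 to 0.12 in the authors' deposited table. The RNA-binding gene Mex3a was at 1.39 and 1.26 FPKM. Tnfrsf19, a TNF receptor family member also called Troy, was at 1.62 and 2.18 FPKM, with p = 0.0565 in the authors' deposited table.

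Gkn3 and Fstl1 were the crypt base markers with an unadjusted p below 0.05. Gkn3, a gastrokine family gene (mm10 chr6:87383256-87388935, minus strand), was at 3.95 FPKM in WT and 2.51 FPKM in PTBP1_KO (log2 fold change -0.65, p = 0.0401, q = 0.9998 in the authors' deposited table). Fstl1, a secreted follistatin-like glycoprotein (mm10 chr16:37776873-37836514, plus strand), was at 0.495 and 0.189 FPKM. Its log2 fold change was -1.39, with p = 0.00135 and q = 0.156, the lowest q of the 38 genes in the authors' deposited table. Fstl1 is also known from fibroblasts, and 3 stromal collagen genes that did not pass q < 0.05 were listed lower too: Col1a1, Col1a2 and Col3a1 had log2 fold changes of -1.34, -1.13 and -1.19 in the authors' deposited table, each under 1 FPKM in both groups. The other 6 stromal and muscle markers were all listed higher, 3 of them untested, with Vim at 4.90 and 6.28 FPKM and Acta2 at 0.115 and 0.223 FPKM. The 9 stromal and muscle markers summed to 7.12 FPKM in WT and 8.04 FPKM in PTBP1_KO, and Vim made up most of both sums. The part of stromal cells in the Fstl1 value was not tested.

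Reserve cell markers are genes linked to slowly dividing cells above the crypt base. Hopx, a homeodomain-only gene, was at 65.5 and 63.1 FPKM (log2 fold change -0.05, p = 0.731, q = 0.9998 in the authors' deposited table). Bmi1, a Polycomb gene, was at 8.30 and 9.55 FPKM (log2 fold change 0.20, p = 0.269, q = 0.9998 in the authors' deposited table). Tert, the catalytic subunit of telomerase, was at 2.64 and 3.38 FPKM (log2 fold change 0.36, p = 0.0709, q = 0.9998 in the authors' deposited table). Of these 3 genes, 2 were listed higher and 1 lower, with a median log2 ratio of 0.18. None of the 3 passed the test, and proliferation markers summed to 398 FPKM in WT and 389 FPKM in PTBP1_KO.

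Of the 5 feedback inhibitors, 2 were listed higher and 3 lower, with a median log2 ratio of -0.06. Axin2 was at 43.9 FPKM in WT and 36.4 FPKM in PTBP1_KO, or 83.0% of the WT level (log2 fold change -0.27, p = 0.131, q = 0.9998 in the authors' deposited table). Rnf43 was at 17.5 and 16.8 FPKM (log2 fold change -0.06, p = 0.667, q = 0.9998 in the authors' deposited table). Its relative Znrf3 was at 3.004 and 3.005 FPKM (log2 fold change 0.0002, p = 0.999, q = 0.9998 in the authors' deposited table). The pair of Frizzled-removing ligases thus had near-equal levels, while the Axin2 value was lower without passing the test. Nkd1, which binds Dishevelled, was at 1.40 and 1.499 FPKM, and Notum, an enzyme that inactivates Wnt ligands, was at 0.252 and 0.159 FPKM.

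Among the 6 other Wnt targets, 2 were listed higher and 4 lower, with a median log2 ratio of -0.07. Myc, a growth-promoting transcription factor, was at 55.6 and 49.0 FPKM (log2 fold change -0.18, p = 0.227, q = 0.9998 in the authors' deposited table). Ephb2 and Ephb3, receptors that keep cells in place along the crypt, were at 23.0 and 23.5 FPKM and at 9.44 and 9.03 FPKM. For Ephb2 the log2 fold change was 0.03, with p = 0.829 and q = 0.9998 in the authors' deposited table. Sox9, a transcription factor of crypt base cells that Paneth cells also need, was at 16.7 and 13.6 FPKM, or 81.1% of WT (log2 fold change -0.30, p = 0.0400, q = 0.9998 in the authors' deposited table). Sox9 was lower although 8 of 8 Paneth markers were listed higher, and their part in its value was not tested. Cd44, a hyaluronan receptor, was at 11.9 and 12.7 FPKM, and the transcription factor gene Sp5 was at 3.96 and 3.70 FPKM.

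The nuclear effectors of the pathway were listed 2 higher and 2 lower, with a median log2 ratio of 0.03. Ctnnb1, which encodes β-catenin, was at 347 and 340 FPKM (log2 fold change -0.03, p = 0.889, q = 0.9998 in the authors' deposited table). Tcf7l2, the main TCF factor of the intestinal epithelium, was at 19.1 and 20.2 FPKM (log2 fold change 0.08, p = 0.623, q = 0.9998 in the authors' deposited table). Tcf7 was at 3.81 and 4.53 FPKM (log2 fold change 0.25, p = 0.230, q = 0.9998 in the authors' deposited table). Lef1 (mm10 chr3:131110471-131224356, plus strand) was at 0.651 and 0.275 FPKM, with a log2 fold change of -1.24, p = 0.0292 and q = 0.895 in the authors' deposited table. Tcf7 and Lef1 are expressed in T cells too, and all 8 T cell and leukocyte markers were listed higher in PTBP1_KO, as was Tcf7 and unlike Lef1. The part of these cells in either value was not tested.

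**Figure D2:**
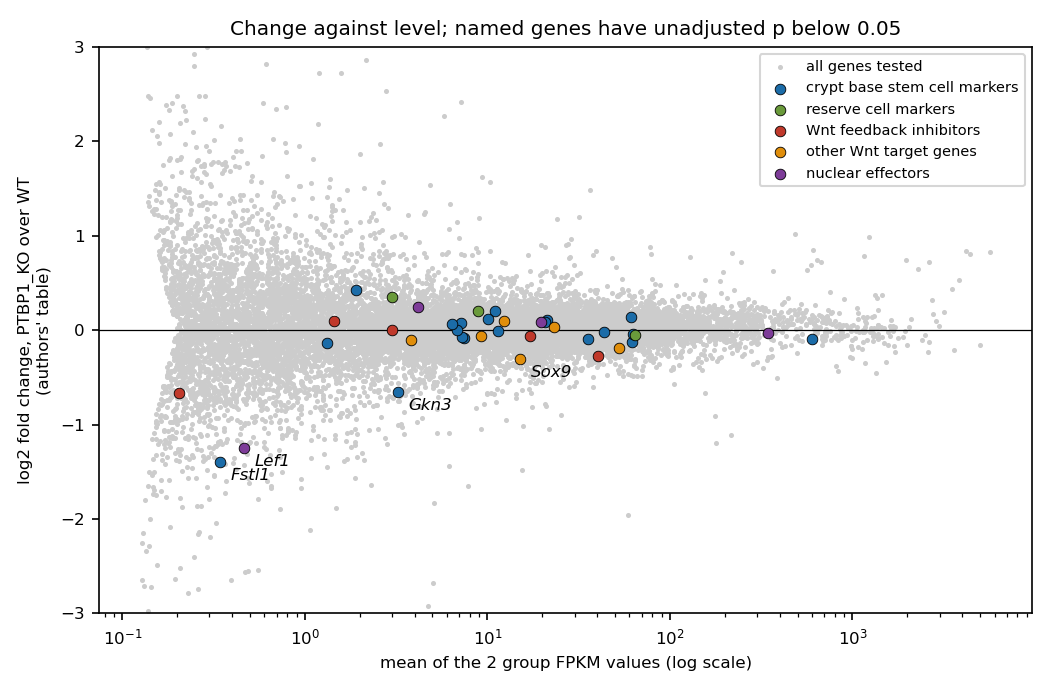
Log2 fold change of PTBP1_KO over WT from the authors' table against the mean of the group levels on a log axis, with all genes tested in grey and the 38 in colour by role; 23 genes outside 3 on either side are not drawn. The 4 labelled genes have an unadjusted p below 0.05, and Fstl1 and Lef1 lie at low levels where grey points also spread widely.

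A list of 88 other genes of the pathway, from ligands to nuclear cofactors, was read in the same way. Of these, 58 were tested, none passed q < 0.05 in the authors' Cuffdiff test, and 2, or 3.45%, had an unadjusted p below 0.05, against 4.35% of all genes tested. Their log2 fold changes were above 0 in 32 and below 0 in 26, or 44.8%, against 45.3% below 0 among all genes tested. The median log2 ratio of these pathway genes was 0.01. The genes with an unadjusted p below 0.05 were Wnt3 and Fzd9, both higher. Wnt3, a ligand that Paneth cells supply to stem cells, was at 2.07 FPKM in WT and 3.11 FPKM in PTBP1_KO (log2 fold change 0.59, p = 0.0090, q = 0.499 in the authors' deposited table). The Paneth markers were higher as well, as given above, and their part in the Wnt3 value was not tested. Fzd9, a Frizzled receptor gene, was at 0.494 and 0.900 FPKM (log2 fold change 0.87, p = 0.0188, q = 0.712 in the authors' deposited table).

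By role, 5 of 20 genes for ligands and their secretion were tested, 4 of them listed higher. Porcn, the acyltransferase that lipidates Wnt ligands, was at 1.26 and 1.55 FPKM (p = 0.379 in the authors' deposited table). Of 15 receptor genes, 13 were tested and 10 were listed higher, among them Fzd7 at 4.34 and 5.23 FPKM (p = 0.124 in the authors' deposited table). Of 17 destruction complex and cytoplasmic genes, 16 were tested, 10 were listed lower and all 16 differed by less than 1.2-fold. Csnk1e, a casein kinase, was at 11.8 and 10.2 FPKM (p = 0.352), and Ppp2r1a, a phosphatase scaffold, was at 100.2 and 88.9 FPKM (p = 0.515 in the authors' deposited table). Only 1 of 9 secreted inhibitors, Sfrp5, was tested, at 3.81 and 3.599 FPKM. Of 12 nuclear cofactors tested, 7 were listed higher. Of 11 further responsive genes tested, 6 were listed lower, with Ccnd2, which encodes cyclin D2, at 63.6 and 50.9 FPKM (log2 fold change -0.32, p = 0.0880, q = 0.9998 in the authors' deposited table).

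Splicing of the 38 genes was read from the authors' tables of skipped exons, alternative 5' and 3' splice sites, mutually exclusive exons and retained introns. These compare a first with a second set of libraries, and their headers do not say which set is WT. A difference below is the inclusion level of the first set minus that of the second, as a fraction, and carries no direction by genotype. An event was called at FDR < 0.05, a difference of at least 0.1 on either side and an average of 20 or more reads per library. The 3 exons below are wholly coding, carry a called event and have lengths that are multiples of 3. Each exon is in capitals between 15 bases of its neighbours in the transcript, on mm10 with GENCODE M21 exons.
Prom1, 27 nt, exon 4 of 28 in Prom1-202, chr5:44058626-44058652, minus strand: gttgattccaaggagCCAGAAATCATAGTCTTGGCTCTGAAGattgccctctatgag
Tcf7l2, 51 nt, exon 12 of 13 in Tcf7l2-202, chr19:55924530-55924580, plus strand: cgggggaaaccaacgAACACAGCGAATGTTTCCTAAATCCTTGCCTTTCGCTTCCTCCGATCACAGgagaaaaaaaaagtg
Cd44, 126 nt, exon 8 of 19 in Cd44-201, chr2:102845285-102845410, minus strand: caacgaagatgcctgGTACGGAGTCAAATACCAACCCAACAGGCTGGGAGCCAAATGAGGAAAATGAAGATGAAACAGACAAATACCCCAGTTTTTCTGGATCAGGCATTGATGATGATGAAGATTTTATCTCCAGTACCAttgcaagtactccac

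Another Tcf7l2 exon is listed with a pair of 3' splice sites that lie 2 bases apart, giving 75 nt (chr19:55926682-55926756) or 73 nt (chr19:55926684-55926756). The shift matters for the reading frame, since 75 is a multiple of 3 and 73 is not. The join with the exon before it is shown with the 2 bases found only in the longer form in capitals, followed by 40 bases of both forms.
Tcf7l2, chr19:55926682-55926723, plus strand: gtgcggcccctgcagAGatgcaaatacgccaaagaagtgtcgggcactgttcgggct

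Of the 38 genes, 25 had 172 listed events, and 139 events in 24 genes averaged 20 or more reads per library. The other 14 genes, among them Olfm4, Ascl2, Sox9, Lef1, Fstl1 and Gkn3, had no event with that many reads. Skipped exon events were called 7 times out of 107, or 6.54%, against 1.68% of all such events tested. The 7 lie in only 4 genes and 4 of them in Tcf7l2, and events of a gene share exons and reads, so they are not 7 separate observations. No call was made among 5 alternative 5' splice sites (1.57% of all tested), 8 alternative 3' splice sites (1.1%), 16 mutually exclusive exon events (1.02%) or 3 retained introns (2.06%). Most events were alike in the sets: 115 of 139 differed by less than 0.05, or 82.7%, against 88.8% of all events tested.

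**Figure D3:**
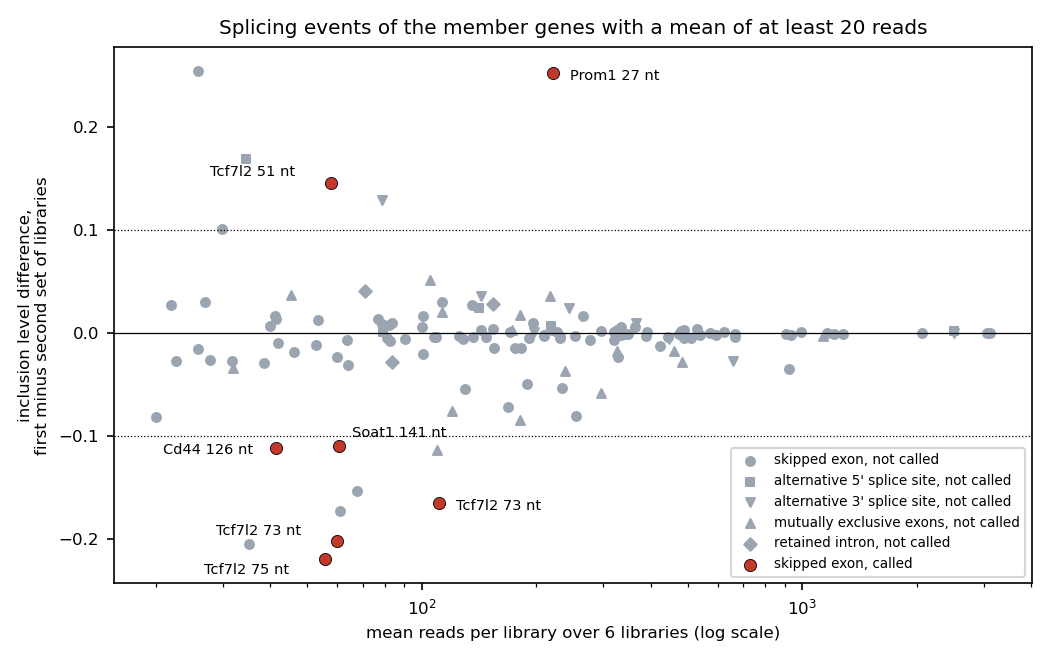
Inclusion level difference, first minus second set of libraries, of the 139 events that averaged 20 or more reads per library, against that average on a log axis; grey shapes give the event type, red circles are the 7 called skipped exons, and dotted lines mark a difference of 0.1. Only Prom1 and the 51 nt exon of Tcf7l2 are called above 0.

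The 27 nt exon of Prom1 had 221 inclusion and 1111 skipping reads over the 6 libraries, with 132 to 303 reads per library and a pooled inclusion of 14.3%. The difference was 0.252, and the FDR in the authors' deposited table is listed as 0. This was the called event with the most reads and the widest difference. The exon also holds 1 copy of TCTT, a motif of the kind that PTBP1 binds, which 8.55% of 503 skipped exons within 20% of its length hold on the transcript strand. The called exons of Cd44 and Tcf7l2 hold no TCTT, which is held by 40.3% of 11474 exons of like length for Cd44 and by 20.6% of 2946, 27.5% of 7279 and 26.8% of 6678 for the 51, 75 and 73 nt exons of Tcf7l2. CTCTCT was in none of these exons, nor was the longer TTCTTT. A match of letters is a description and does not show binding. The other 14 tested Prom1 events were not called, and the level of the gene differed by less than 1.2-fold, as given above.

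In Tcf7l2, 4 of 30 tested events were called, all near the 3' end of the gene. The 51 nt exon had 52 inclusion and 295 skipping reads, 34 to 83 per library, and a pooled inclusion of 11.5%, with a difference of 0.146 (FDR 0.000307 in the authors' deposited table). The exon with the tandem sites went the other way. Its 75 nt form had 292 inclusion and 42 skipping reads and a pooled inclusion of 82.1%, with a difference of -0.219 (FDR 0.00511 in the authors' deposited table). Its 73 nt form, next to the same left exon, had 317 inclusion and 42 skipping reads and 83.4% pooled inclusion, with a difference of -0.202 (FDR 0.00491 in the authors' deposited table). Next to the left exon at chr19:55923896-55923944, the 73 nt form had 575 inclusion and 93 skipping reads and 80.4% pooled inclusion, with a difference of -0.165 (FDR 0.00776 in the authors' deposited table). In these called pairings the 51 nt exon had more inclusion in the first set and the 73 or 75 nt exon less. The calls share reads and are not separate observations. Reads joining the left exon at chr19:55923896-55923944 to the 73 nt exon count as skipping of the 51 nt exon. They also count as inclusion of the 73 nt exon. Another tested pairing of the 51 nt exon differed by 0.101 and was not called. A pairing of it below the read minimum differed by -0.01. A further tested pairing of the 73 nt exon, at -0.172, was not called either. These exons belong to the part of the gene where transcripts differ in their C-terminal coding sequence. In Tcf7l2-213 all 75 bases are coding, whereas in Tcf7l2-222 only 40 of 73 are. An event listed for the pair of 3' splice sites had 3 reads for the 75 nt form and 28 for the 73 nt form. Its mean of 5.17 reads per library was below the minimum for a call. With so few reads to tell the forms apart, the 82.1% inclusion is not separate evidence for the 75 nt form. The 26 other tested events, which include further pairings of the same exons, were not called.

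**Figure D4:**
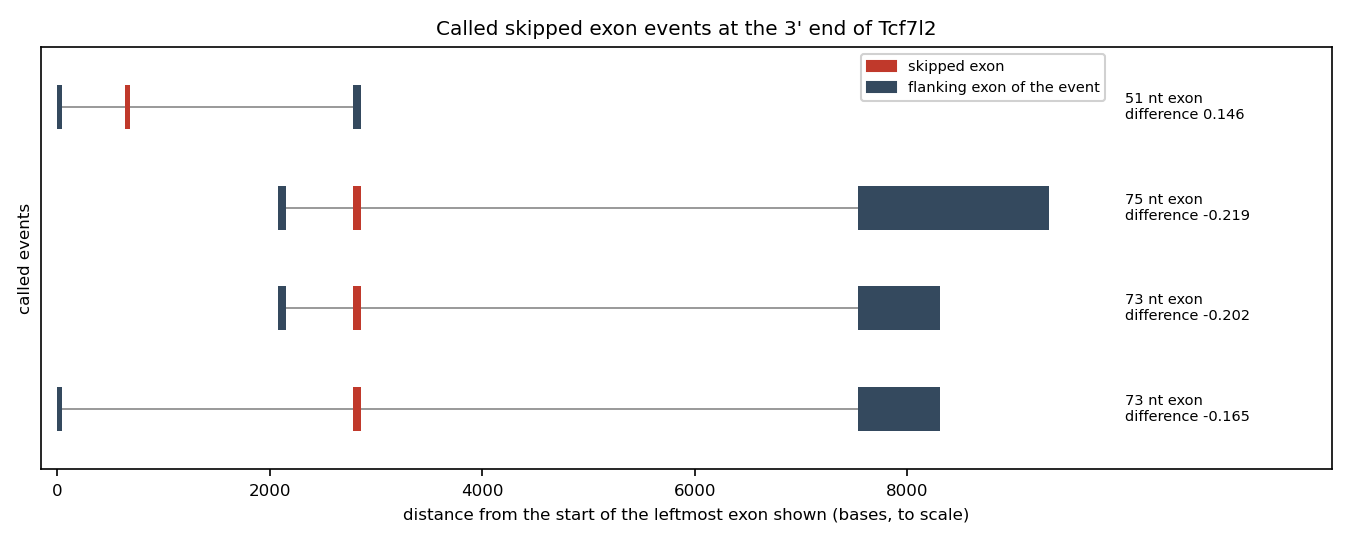
The 4 called Tcf7l2 events drawn to scale as distance in bases from the start of the leftmost exon, with the skipped exon in red and the flanking exons of each event in dark blue. The 51 nt exon is the only one with a difference above 0, and the other events are forms of the same exon.

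In Soat1, which encodes a sterol acyltransferase, a 141 nt exon (chr1:156466658-156466798, minus strand, noncoding in Soat1-206) was called. It had 351 inclusion and 14 skipping reads, 40 to 101 per library, and a pooled inclusion of 92.7%, with a difference of -0.109 (FDR 0.000858 in the authors' deposited table). A 118 nt form of this exon, of which 88 bases are coding in Soat1-207, had a difference of -0.054 (FDR 0.0102 in the authors' deposited table), below the minimum. Both forms were listed with 14 skipping reads. A tested event for the pair of 5' splice sites had 29 reads for the 141 nt form and 446 for the 118 nt form. Its difference was 0.001. With so few reads particular to the 141 nt form, the 92.7% inclusion is not separate evidence for that form. The Soat1 call also lies close to the minimum difference. The 126 nt exon of Cd44, one of the variable exons of the extracellular stem, had 25 inclusion and 223 skipping reads and a pooled inclusion of 5.64%. Its difference was -0.111 (FDR 0.0351 in the authors' deposited table), with 13 reads in the shallowest library and 71 in the deepest. It is the only call among 23 tested Cd44 events, and rests on the fewest reads of the 7. A tested pair of mutually exclusive Cd44 exons had a smaller FDR, 0.0031 in the authors' deposited table. Its difference of -0.075 was below the minimum.

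Among members with no call, the 3 events with the smallest FDR were in Slc12a2, Ctnnb1 and Tcf7. A 48 nt coding exon of Slc12a2 had an FDR of 2.45e-09 in the authors' deposited table with a mean of 923 reads, but its difference of -0.035 was below the minimum, at 97.4% pooled inclusion. An alternative 3' splice site of Ctnnb1 differed by 0.119 over a mean of 15.8 reads, below the minimum (FDR 0.134 in the authors' deposited table). A second event listed for the same Ctnnb1 exon, with a mean of 2502 reads, had 99.6% pooled inclusion and a difference of 0. A 93 nt coding exon of Tcf7 (chr11:52258853-52258945, minus strand) differed by 0.254 at 41.2% pooled inclusion, with a mean of 25.8 reads and an FDR of 0.144 in the authors' deposited table. A difference in Tcf7 as wide as that in Prom1 was thus not called, at a lower read depth. An alternative 3' splice site of the RNA-binding gene Msi1 differed by 0.129 and was not called either (FDR 0.158 in the authors' deposited table). Both tested events of Lgr5 and all 3 of Axin2 differed by no more than 0.006 and 0.005. Their pooled inclusion was 99.5% to 99.9%, with 1 to 7 skipping reads each over the 6 libraries, so there was almost no other form to compare.

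Of 198 tested events in the other pathway genes, 3 were called, or 1.52%, close to the 1.56% of all 53918 events tested. Fbxw11, a subunit of the ubiquitin ligase that marks β-catenin for breakdown, had a called 102 nt exon (chr11:32680201-32680302, difference 0.227) and a called 63 nt exon (chr11:32708188-32708250, difference -0.244). Tle2, a corepressor of TCF factors, had a called retained intron (chr10:81587342-81587552, difference -0.234). The 3 events had means of 25.5, 33.3 and 21.0 reads per library, and at least 1 library of each had fewer than 20 reads.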

How the data were processed

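The submitters' processing notes list mm10, STAR 2.6.1d, Trimmomatic 0.38, bcl2fastq 2.20, Cuffdiff and Cufflinks. The deposited gene table gives 1 FPKM per group, with a log2 fold change, a p-value and a q-value that the authors computed, per the file headers. Its q-values equal Benjamini-Hochberg values over 15460 genes, with a largest deviation of 5.01e-07. The 5 deposited splicing tables have the rMATS layout and give read counts per library, effective lengths (a score column here), inclusion level differences and p-values from the authors, per the file headers. Their sets of libraries are not named, so counts were summed over the 6 libraries, and the authors' differences and FDR were used instead of a new test. Inclusion levels that the tables give for single libraries (10 columns) were left out.

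Pooled inclusion came from summed reads divided by effective lengths. Log2 ratios used a pseudocount of 1 FPKM. Genes were matched to GENCODE M21 by identifier, 2 of the 38 with another version. Exon sequences were read from GENCODE transcripts; intron sequence is not reported here, so the motif search planned for introns was made within exons. Full values were given for members with an unadjusted p below 0.05 and the 3 highest in each role. Among other pathway genes of at least 1 FPKM in the higher group, the 3 highest and 3 lowest fold changes were named. Of these, Wnt3 and Ccnd2 have full values and the others levels and p. Every called event was given, plus the 3 smallest FDR among members without a call. Fzd9 and other genes outside these rules were named after their values were seen. The members and lists were chosen with earlier results of these data known. The code for pooled inclusion and log2 ratios was run on data simulated from the same formulas, the ratios with a pseudocount far below 1 FPKM. Such a run can show coding errors but does not test whether the formulas suit these data. Python 3.11.15, numpy 2.4.6, pandas 2.3.3 and matplotlib 3.10.9 were used.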

Additional observations from a re-analysis of the deposited data

How the results depend on the processing

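No member passed the authors' test at q < 0.1 either, whereas 4 did at an unadjusted p below 0.05. Medians of the 38 genes and of the roles kept their sign with a pseudocount of 0.1, after centring on all genes tested and among genes of at least 1 FPKM, but in the last case the median of the nuclear effectors moved to 0.0798 as Lef1 dropped out. Centring turned the median of the 88-gene pathway list to -0.0019. The 7 called splicing events became 3 at a minimum difference of 0.2, and 5 to 10 under the other thresholds and after overlapping events were merged. The Cd44 call was lost at a mean of 50 reads and at 20 reads in every library. The fold changes of Fstl1 and Lef1 shrank with a pseudocount of 1, by construction at such levels (Fstl1 to -0.33). No paired analysis was possible because the gene table has 1 value per group and the libraries in the splicing tables are not named. Gene values without 1 library cannot be had from that table, and leaving out libraries was not run for splicing, since it had been planned only for libraries that could be tied to a group.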

Other observations

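Cd44 had 4 further events with an FDR below 0.05 in the authors' deposited table but a mean under 20 reads, so they were not called. The differences were -0.338 and -0.294 for skipped exon events and -0.363 and -0.193 for mutually exclusive exon events, where the sign sets one exon against the other. The value of -0.294 belongs to the same exon as the Cd44 call (chr2:102845285-102845410). Other skipped exon events of Cd44 under the read minimum had differences of either sign and no FDR below 0.05. For that same exon these were 0.263, 0.224 and -0.217. Cd44 events share exons and reads, and the 4 were singled out after their values were seen.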
